A study of Homo sapiens with 59 samples.

Results

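Hepatokines are proteins that liver cells secrete into the blood, from where they act on other organs or back on the liver itself. The 8 described here were chosen by name as stress and metabolic hepatokines: GDF15, FGF21, FGF19, ANGPTL4, ANGPTL8, FGL1, LECT2 and FETUB. They are 8 of the 60675 genes in the deposited count table and were followed over all 59 libraries of the series. Of the 8, 6 passed the filter on low counts and were tested. FGF21 and FGF19 did not pass it and are given as counts.

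The RNA came from HepG2 cells, a widely used line from a human liver cancer, which were treated for 24 h. The treatments were 10 uM wortmannin, an inhibitor of phosphatidylinositol 3-kinase used as the positive control, and water extracts of 6 herbal medicines. Scutellariae Radix, Zizyphi Fructus, Pinelliae Tuber and the fresh and dried forms of ginger (Zingiberis Rhizoma Recens is the fresh rhizome, Zingiberis Rhizoma the dried) were each given at 20, 100 and 500 ug/mL. Coptidis Rhizoma was given at 8.4, 42 and 210 ug/mL, and the series text says that an extract with an IC20 under 500 ug/mL was used at that IC20 and at dilutions of it. All were set against a DMSO vehicle group, which the sample labels put at 0.1% DMSO and the series text at 2%; the DMSO content of the treated groups is not given in the sources used here. Every group held 3 libraries except Pinelliae Tuber at 20 ug/mL, which held 2, and all groups are the same cell line in culture with no genetic change.

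GDF15 and FGF21 are best known as stress hormones. Both are switched on when ATF4, the transcription factor of the integrated stress response, accumulates, and GDF15 is also a target of EGR1. FGF19 is made mainly in the gut under the bile acid receptor FXR and tells the liver to stop making bile acids, although liver tumour cells can express it. ANGPTL4 and ANGPTL8 both restrain lipoprotein lipase: the first is driven by fatty acids through PPAR receptors and by low oxygen, and the second by insulin and feeding. FGL1, LECT2 and FETUB are made by hepatocytes and have been tied to immune checkpoint control, inflammation and insulin sensitivity.

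The libraries held between 21582593 and 31392071 expected counts, with a median of 25834177. Libraries of 1 group differed by more than counting noise: the mean chi-square per gene between 2 libraries, near 1 for such noise, lay between 1.89 and 30.1 over 58 pairs. In 3 groups a library stood apart, with values over 10 against both others: the first replicate of Zizyphi Fructus at 20 ug/mL, the third of Pinelliae Tuber at 100 ug/mL and the first of dried ginger at 500 ug/mL. Of 15 hepatocyte markers, 14 exceeded 1 CPM (a count scaled to library size) in every library; CYP3A4 was the one that did not. The summed hepatocyte markers reached 55450 to 56310 CPM with wortmannin, 29000 to 30040 CPM with Coptidis Rhizoma 210 ug/mL and 33040 to 33900 CPM with Scutellariae Radix 500 ug/mL, against 48100 to 48780 CPM in vehicle. Of 22 markers of other cell types, 8 had at most 3 counts in every library (PTPRC, CD3E, MS4A1, COL1A2, LUM, KRT5, ADIPOQ and SFTPC). Another 5 exceeded 1 CPM in every library: EPCAM (116.5 to 171.5 CPM), CD68 (25.25 to 86.5), ACTA2 (30.83 to 85.18), PDGFRB (2.981 to 20.72) and PECAM1 (1.858 to 4.505). All 22 together summed to between 227.0 and 274.2 CPM in any library. Nothing in the labels says that replicates were separate cultures, so p-values measure the spread between these libraries, which may be technical. Vehicle and wortmannin carry another first number in their titles than the extracts, of unstated meaning, and only vehicle titles put a letter A before it. The gingers carry 2, Pinelliae Tuber and Scutellariae Radix 3, and Coptidis Rhizoma and Zizyphi Fructus 4. That number and treatment cannot be told apart in the vehicle comparisons of extracts or between extracts of different numbers. Nor can the letter and treatment in any vehicle comparison. Comparisons between doses and between the gingers do not cross it. Every title, of vehicle and of treated groups alike, also reads BatchA, and what that label covers is not stated. In RNA from whole cultures, fewer cells of a kind and less RNA per cell cannot be told apart.

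Levels of the 8 genes spanned several orders of magnitude. Per kilobase of exon, GDF15 averaged 218.6 CPM over all groups, FGL1 33.95 and ANGPTL8 7.651. FETUB averaged 0.6772, ANGPTL4 0.511 and LECT2 0.08391 CPM per kilobase, and FGF21 and FGF19 were lowest at 0.02194 and 0.00941. The GDF15 average is raised by the extracts that induced it: GDF15 stood at 50.17 CPM per kilobase with wortmannin and 67.42 in vehicle, beside 40.13 and 34.44 for FGL1 in those groups. Of the 8, 5 averaged under 1 CPM per kilobase.

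GDF15, a hormone of the TGF-beta family that signals nausea and reduced appetite to the hindbrain through the receptor GFRAL, was the member that moved most and in most groups. It rose with dose for 4 extracts (Coptidis Rhizoma, Scutellariae Radix and both gingers), reached 17.3-fold at the top Coptidis dose, and fell with wortmannin. The gene, ENSG00000130513, lies on the plus strand at chr19:18374731-18389176 (GRCh38), and the only other gene annotated over it, the microRNA gene MIR3189, had 0 counts. GDF15 and FGF21 share ATF4 as a known regulator, and ANGPTL8 was also higher at the middle Coptidis dose. The windows around the start sites of these 3 genes are shown, a choice made with their responses known. FGL1 was called higher at that dose too (log2 0.15), but no window was used for it. Sequences run from 250 bases before to 50 bases after the RefSeq start (GRCh38.p14). Capitals mark, in GDF15, the GC box GGGCGG on either strand and, in the other two, the C/EBP-ATF core TGATGNAA on either strand, the site through which ATF4 and C/EBP factors act at amino acid response genes.
GDF15, chr19:18385908-18386207, plus strand: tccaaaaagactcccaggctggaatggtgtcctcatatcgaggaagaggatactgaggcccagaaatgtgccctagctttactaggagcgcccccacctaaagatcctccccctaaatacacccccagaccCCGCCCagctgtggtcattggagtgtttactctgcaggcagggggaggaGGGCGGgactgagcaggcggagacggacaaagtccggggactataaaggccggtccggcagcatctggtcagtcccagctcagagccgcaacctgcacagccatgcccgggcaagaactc
FGF21, chr19:48755274-48755573, plus strand: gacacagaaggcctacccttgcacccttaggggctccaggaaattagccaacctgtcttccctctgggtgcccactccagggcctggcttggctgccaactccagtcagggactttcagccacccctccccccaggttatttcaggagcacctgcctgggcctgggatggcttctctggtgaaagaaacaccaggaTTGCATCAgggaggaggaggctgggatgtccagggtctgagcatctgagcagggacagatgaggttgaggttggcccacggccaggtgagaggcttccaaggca
ANGPTL8, chr19:11239369-11239668, plus strand: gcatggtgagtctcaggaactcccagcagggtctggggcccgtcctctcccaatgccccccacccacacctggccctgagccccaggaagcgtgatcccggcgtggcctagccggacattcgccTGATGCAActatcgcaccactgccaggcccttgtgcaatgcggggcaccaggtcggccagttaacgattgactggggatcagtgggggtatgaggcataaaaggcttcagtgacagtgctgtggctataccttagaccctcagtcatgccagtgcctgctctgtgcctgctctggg
The C/EBP-ATF core began at -54 in FGF21 (on the minus strand, read TTGCATCA) and at -126 in ANGPTL8 (TGATGCAA), counted on the gene's strand from the start site. It was not found in the GDF15 window, which held GC boxes at -119 and -70. Among 34943 windows of the same length, 3.62% held the core and 44.9% held a GC box. The windows of ANGPTL4 and the 2 of FETUB held no core, and that of LECT2 held one at -206 (TTCCATCA). LECT2 was not raised at the middle Coptidis dose, where its mean of 0.0659 CPM ranked 20 among the groups. Whether the core bears on any of these responses was not tested. GC boxes also lay in the ANGPTL4 window, at -186 and -50. These are matches of letters and show no binding, and the absence of a match says nothing of a factor outside the window.

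**Figure D1:**
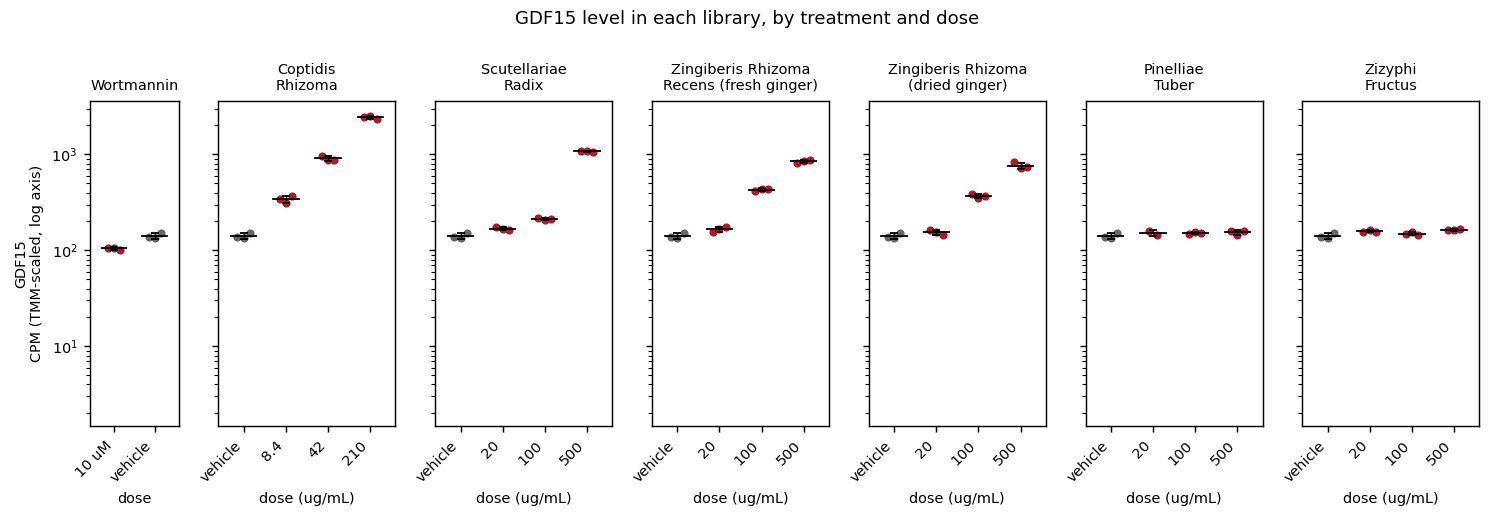
GDF15 level in CPM on a log axis, by treatment group; each point is a library (red treated, grey vehicle), the black line is the group mean and bars are 1 SD. The 4 extracts that raise GDF15 climb with each dose, to between 2352 and 2508 CPM in Coptidis Rhizoma 210 ug/mL, while Pinelliae Tuber and Zizyphi Fructus stay near the vehicle libraries at 133.7 to 151.3 CPM.

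With Coptidis Rhizoma, whose main alkaloid is berberine, GDF15 reached 342.1, 308.7 and 369.9 CPM at 8.4 ug/mL, 967.4, 866.7 and 884.0 CPM at 42 ug/mL and 2423, 2508 and 2352 CPM at 210 ug/mL, against 137.2, 133.7 and 151.3 CPM in vehicle. No library of one dose overlapped with another dose or with vehicle. The log2 changes against vehicle were 1.27 ± 0.06 (SE, adjusted p = 1.81e-23), 2.69 ± 0.06 (2.82e-37) and 4.11 ± 0.06 (1.02e-45) by edgeR's quasi-likelihood test. Each 5-fold step in dose added a like amount, 1.41 ± 0.05 from the middle over the bottom dose (1.46e-26) and 1.42 ± 0.05 from the top over the middle dose (6.75e-28). 

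Scutellariae Radix, the root of a skullcap rich in flavones, moved GDF15 mainly at its top dose. The libraries held 175.6, 165.9 and 162.3 CPM at 20 ug/mL, 216.9, 207.5 and 214.5 CPM at 100 ug/mL and 1085, 1074 and 1058 CPM at 500 ug/mL. All 9 lay above the vehicle libraries, and the 3 doses did not overlap. Against vehicle the log2 changes were 0.26 ± 0.06 (adjusted p = 0.00245), 0.60 ± 0.06 (6.88e-12) and 2.93 ± 0.06 (1.46e-39). The step from 100 to 500 ug/mL was 2.33 ± 0.06 (8.19e-36), against 0.34 ± 0.06 (5.8e-05) from 20 to 100 ug/mL.

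Fresh ginger gave 154.9, 166.9 and 173.3 CPM at 20 ug/mL, 416.4, 434.7 and 438.4 CPM at 100 ug/mL and 813.6, 858.7 and 866.5 CPM at 500 ug/mL. Dried ginger gave 162.6, 154.7 and 144.3 CPM at 20 ug/mL, 385.0, 349.1 and 369.0 CPM at 100 ug/mL and 829.4, 715.3 and 730.8 CPM at 500 ug/mL. The 2 upper doses of both gingers lay wholly above vehicle, and the bottom dose of dried ginger overlapped with it. Against vehicle, fresh ginger gave log2 changes of 0.23 ± 0.06 (adjusted p = 0.0142), 1.61 ± 0.06 (3.8e-28) and 2.59 ± 0.06 (7.56e-37). Dried ginger gave 0.13 ± 0.06, which did not pass, then 1.39 ± 0.06 (4.76e-25) and 2.43 ± 0.06 (1.03e-35). The rise with 20 ug/mL fresh ginger was lost in 3 of 6 fits that left out 1 library (vehicle 1, vehicle 2 or fresh ginger 3).

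Between the gingers, GDF15 was higher with fresh than with dried ginger at 100 ug/mL by 0.23 ± 0.05 (adjusted p = 0.0398), where the libraries did not overlap. This call was lost in each of the 6 fits that left out 1 library. At 500 ug/mL the difference was 0.16 ± 0.05 (adjusted p = 0.129), and it was 0.22 (adjusted p = 0.0211) without the 3 libraries that stood apart, one of which is dried ginger replicate 1. The change from bottom to top dose differed between the gingers by 0.06 ± 0.08 and did not pass.

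Zizyphi Fructus, the jujube fruit, gave 155.2, 161.8 and 156.0 CPM at 20 ug/mL, 148.9, 154.1 and 144.5 CPM at 100 ug/mL and 161.7, 162.5 and 167.9 CPM at 500 ug/mL. Only its top dose passed the test, at 0.22 ± 0.06 (adjusted p = 0.0169), and that call was lost in 3 of 6 fits that left out 1 library (vehicle 1, vehicle 2 or its own replicate 3). Pinelliae Tuber ranged from 143.9 to 160.8 CPM over its 8 libraries and passed at no dose. Wortmannin gave 106.4, 106.3 and 101.4 CPM, wholly below vehicle, a log2 change of -0.43 ± 0.06 (adjusted p = 4.34e-08). Over all 19 treated groups GDF15 rose in 12 and fell in 1. In the order of the 20 group means, 8 of 19 neighbouring pairs did not overlap. The groups from rank 10 (Scutellariae Radix 20 ug/mL) to vehicle at rank 19 each overlapped with the next, and wortmannin at rank 20 did not overlap with vehicle.

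Of the GDF15 regulators given here, EGR1 and ATF3 moved most with the extracts. EGR1, an immediate early factor that binds GC-rich promoters, rose by 4.69 with Coptidis Rhizoma 210 ug/mL, 3.16 with Scutellariae Radix 500 ug/mL, 2.73 with fresh and 2.51 with dried ginger 500 ug/mL, and changed by -0.83 with wortmannin (log2, all called). ATF3, a stress factor downstream of ATF4, rose by 4.18, 3.20, 2.18 and 2.13 in the same 4 extract groups. ATF4 itself rose by 0.89, 0.50, 0.26 and 0.14 and changed by -0.11 with wortmannin. DDIT3 (CHOP), which ATF4 induces under strong stress, rose by 1.71 and 1.00 with the top doses of Coptidis Rhizoma and Scutellariae Radix; with the gingers it changed by 0.19 and 0.07, which did not pass.

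Genes of the ATF4 amino acid response, which restore amino acid supply and redox balance, were counted in the same groups. Of 20 listed and tested, 18 rose and 2 fell with Coptidis Rhizoma 210 ug/mL (median log2 change 1.905), led by the glutathione-degrading CHAC1 (7.21), ATF3 (4.18), the cystine transporter subunit SLC7A11 (3.72) and the lipoprotein receptor VLDLR (3.29). At 42 ug/mL 19 rose and none fell (median 1.35), and at 8.4 ug/mL 16 rose and none fell (0.61). Scutellariae Radix 500 ug/mL raised 18 and lowered 1 (1.02), fresh ginger 500 ug/mL raised 16 and lowered 3 (0.44), and dried ginger 500 ug/mL raised 13 and lowered 3 (0.36). Wortmannin raised 2 and lowered 9 (-0.19). Of all 16641 tested genes, 34.8% rose and 34.5% fell with Coptidis Rhizoma 210 ug/mL, 24.7% and 25.5% with Scutellariae Radix 500 ug/mL, 23.5% and 22.5% with fresh ginger 500 ug/mL, 21.5% and 20.9% with dried ginger 500 ug/mL and 16.2% and 16.0% with wortmannin. With Coptidis Rhizoma 42 and 8.4 ug/mL, 23.4% and 8.58% of all genes rose. The median over all tested genes was within 0.02 of 0 in each comparison.

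The genes whose group means most resembled those of GDF15 over the 20 groups, among 10662 compared, were the Notch ligand JAG1 (Pearson r = 0.992), the TWEAK receptor TNFRSF12A (0.990) and SLC7A11 (0.987); Spearman's rho was 0.887, 0.881 and 0.887. The groups share libraries and depth with GDF15, and these are descriptions. GFRAL and its co-receptor RET did not pass the filter on low counts.

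FGF21 and FGF19 are endocrine fibroblast growth factors that need the co-receptor beta-klotho (KLB) to bind FGF receptors. FGF21, which the liver makes in fasting and stress, was found with Coptidis Rhizoma more than with any other treatment. Its gene, ENSG00000105550, lies on the plus strand at chr19:48755559-48758333. It had 3, 2 and 2 counts in the Coptidis Rhizoma 8.4 ug/mL libraries, 6, 4 and 6 at 42 ug/mL and 3, 1 and 3 at 210 ug/mL, against 0, 0 and 0 in vehicle. All 9 Coptidis libraries had a count, 30 in sum, against 11 of the 50 other libraries with 13 counts in sum and at most 2 in any. Vehicle was given a floor of 3 counts over the group. The observed Coptidis levels were 2.45, 5.45 and 2.35 times that floor from the bottom to the top dose. Counting error in the Coptidis counts is not part of these values. The middle dose held the most counts. Scutellariae Radix 500 ug/mL had 1 count in each of its 3 libraries, too few for a fold change.

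In a fit of all genes with no filter on low counts, FGF21 passed at 42 ug/mL (adjusted p = 0.0015) and 210 ug/mL (0.0288) of Coptidis Rhizoma and not at 8.4 ug/mL (0.0974). Between doses neither step passed in that fit: the change was -1.19 for 210 over 42 ug/mL (adjusted p = 0.404), and the adjusted p for 42 over 8.4 ug/mL was 0.612. With 43 counts over 59 libraries, a level under a few counts per library was not detectable at this depth. FGF19 (ENSG00000162344, minus strand, chr11:69698232-69704642) had 36 counts in 26 libraries. Coptidis Rhizoma 210 ug/mL held 3, 5 and 0 counts, against 1, 0 and 0 in vehicle, a ratio of 8.06 with a 95% counting interval of 1.08 to 358 that rests on 2 of its 3 libraries. In the fit with no filter the FGF19 change in that group was 2.61 and did not pass (adjusted p = 0.127). Dried ginger 500 ug/mL held 1, 2 and 2 counts, and no other group held more than 3 in sum. Intervals here cover counting error only, and the FGF21 floor does not cover such error in the Coptidis counts.

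**Figure D2:**
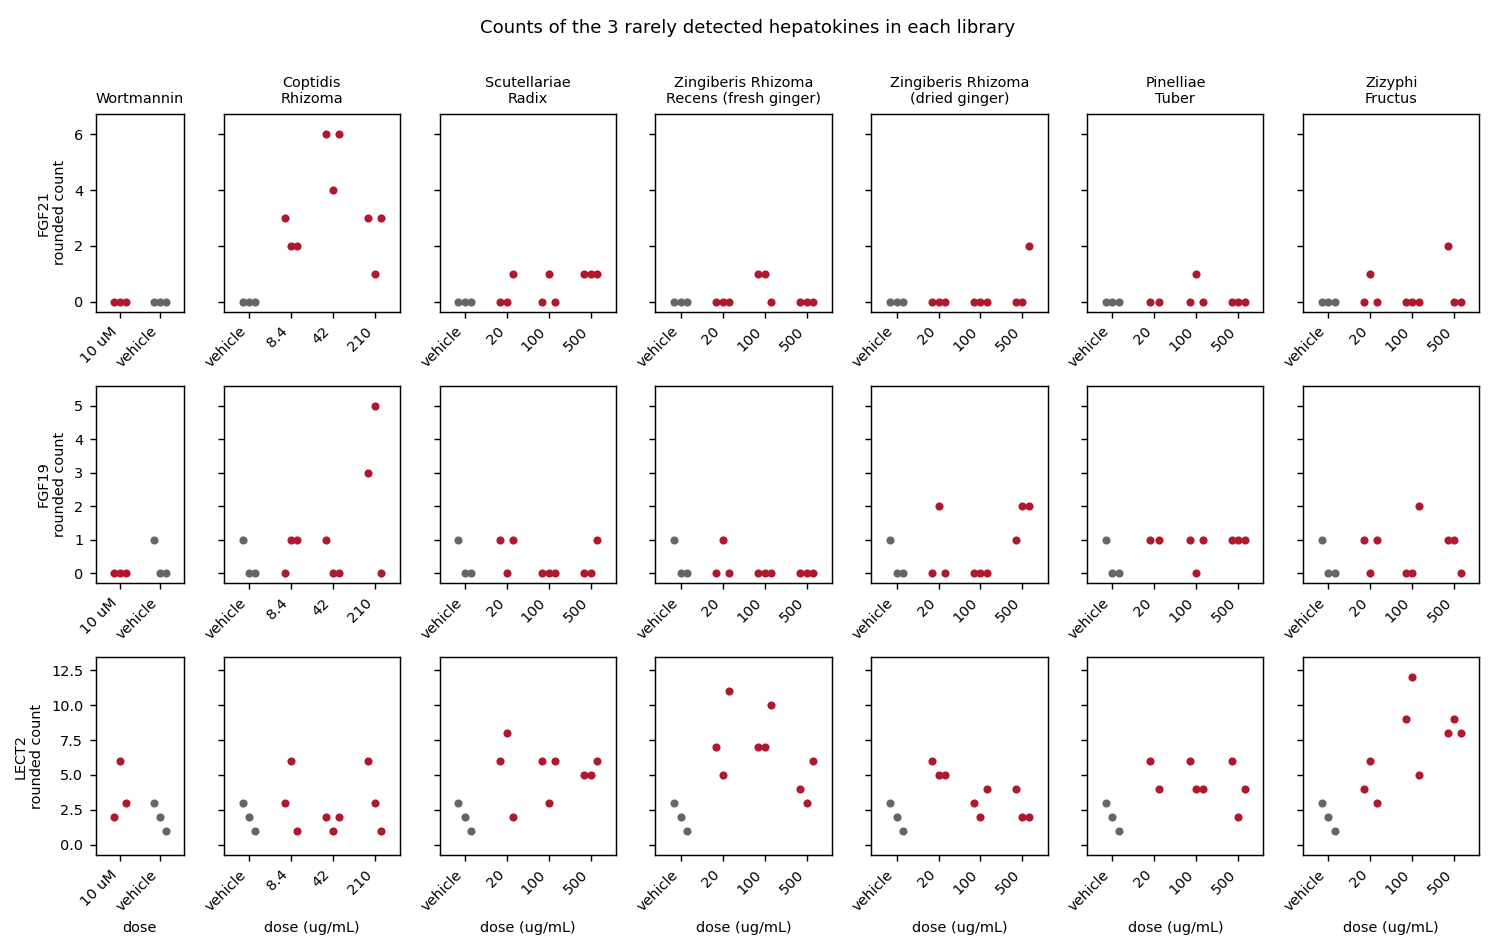
Rounded counts of FGF21, FGF19 and LECT2 per library, by treatment group (red treated, grey vehicle); no mean is drawn. FGF21 is above 0 in all 9 Coptidis Rhizoma libraries and highest at 42 ug/mL (6, 4 and 6 counts), and LECT2 reaches 12 counts in Zizyphi Fructus 100 ug/mL against 1 to 3 in vehicle.

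Of 12 listed receptors and co-receptors, 8 were tested. In each of the groups Coptidis Rhizoma 210 ug/mL, Scutellariae Radix 500 ug/mL and fresh and dried ginger 500 ug/mL, 5 of the 8 fell (KLB and FGFR1 to FGFR4) and 3 rose (MET, TIE1 and INSR), where 34.5%, 25.5%, 22.5% and 20.9% of all genes fell and 34.8%, 24.7%, 23.5% and 21.5% rose. FGFR1, a receptor through which FGF21 acts, changed by -0.95, -0.95, -0.29 and -0.28 in these groups, in that order. The log2 change of KLB was -2.66 with Coptidis Rhizoma 210 ug/mL (adjusted p = 1.57e-43), -1.08 at 42 ug/mL, -0.83 with Scutellariae Radix 500 ug/mL, -0.73 and -0.72 with fresh and dried ginger 500 ug/mL and 0.26 with wortmannin. FGFR4, the main hepatocyte receptor for FGF19, changed by -0.73, -0.24, -0.62, -0.37 and -0.32 in the same 5 extract groups, all called. Beside the receptors, NR1H4, which encodes FXR, the bile acid receptor that induces FGF19, changed by -3.02 with Coptidis Rhizoma 210 ug/mL, -1.91 with Scutellariae Radix 500 ug/mL and -1.90 and -1.80 with fresh and dried ginger 500 ug/mL. CYP7A1, the rate-limiting enzyme of bile acid synthesis that FGF19 represses, changed by -3.21 with Coptidis Rhizoma 210 ug/mL, by -1.65 and -1.61 with fresh and dried ginger 500 ug/mL and by 1.23 with wortmannin. KL, the klotho of kidney, did not pass the filter.

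ANGPTL8 and ANGPTL4 are inhibitors of lipoprotein lipase, the enzyme that frees fatty acids from circulating triglyceride. ANGPTL8 (ENSG00000130173, plus strand, chr19:11237450-11241943) is induced by insulin. Its mean was lower than in vehicle at the top dose of every extract, and higher at the middle dose of Coptidis Rhizoma. The calls at the top doses of Coptidis Rhizoma and Pinelliae Tuber were lost in several settings. The gene lies within DOCK6 on the opposite strand. The kit kept strand, but the strand setting of the counting is not given in the sources used here, so reads of ANGPTL8 and DOCK6 may not have been told apart; DOCK6 rose by 1.03 with Coptidis Rhizoma 210 ug/mL, 0.70 at 42 ug/mL and 0.45 with Scutellariae Radix 500 ug/mL.

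With Coptidis Rhizoma, ANGPTL8 held 11.49, 11.55 and 11.29 CPM at 8.4 ug/mL, 19.33, 17.58 and 18.34 CPM at 42 ug/mL and 7.759, 9.936 and 8.048 CPM at 210 ug/mL, against 9.521, 9.496 and 10.54 CPM in vehicle. The middle dose lay above every other library of the series, and the top dose overlapped with vehicle. Against vehicle the log2 change was 0.22 ± 0.08 at 8.4 ug/mL, which did not pass, and 0.90 ± 0.08 at 42 ug/mL (adjusted p = 8.17e-14). At 210 ug/mL it was -0.20 ± 0.09 (adjusted p = 0.0389), a call lost with other size factors, without a filter, with DESeq2, in a fit of only these groups and in 3 of 6 fits that left out 1 library (-0.13 without its own replicate 1). Between doses, the change was -1.10 ± 0.08 for 210 over 42 ug/mL (8.96e-17) and 0.69 ± 0.08 for 42 over 8.4 ug/mL (4.81e-10).

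Scutellariae Radix gave the lowest ANGPTL8. Its libraries held 10.13, 10.76 and 8.538 CPM at 20 ug/mL, 7.947, 7.874 and 9.099 CPM at 100 ug/mL and 3.925, 3.761 and 3.907 CPM at 500 ug/mL, the last below every other library of the series. The change at 500 ug/mL was -1.35 ± 0.10 against vehicle (adjusted p = 1.39e-16) and -1.10 ± 0.10 against 100 ug/mL (3.05e-13). At 100 ug/mL it was -0.25 ± 0.09 against vehicle (0.0483), a call lost in 5 other settings and in 5 of 6 fits that left out 1 library.

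Dried ginger 500 ug/mL held 6.299, 6.294 and 6.000 CPM of ANGPTL8, wholly below vehicle, a change of -0.67 ± 0.09 (adjusted p = 2.53e-08). Fresh ginger 500 ug/mL held 7.046, 8.716 and 7.976 CPM, also wholly below, a change of -0.32 ± 0.09 (0.00283). Fresh ginger 20 ug/mL held 11.01, 12.67 and 12.21 CPM, wholly above, at 0.28 ± 0.08 (0.0382), a call lost without the filter and in 4 of 6 fits that left out 1 library. Within each ginger the top dose was below the bottom dose, with a log2 change of -0.59 ± 0.09 for fresh (8.56e-08) and -0.72 ± 0.09 for dried ginger (2.93e-09). ANGPTL8 was higher with fresh than with dried ginger at 500 ug/mL by 0.35 ± 0.09 (adjusted p = 0.0352), with no overlap. The call was lost without the 3 libraries that stood apart (adjusted p = 0.0941), without the filter, in a fit of only these groups and in 4 of 6 fits that left out 1 library. The difference between the gingers in the change from bottom to top dose was 0.13 and did not pass.

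The remaining ANGPTL8 calls against vehicle were small. Wortmannin held 8.270, 7.616 and 7.346 CPM (-0.35 ± 0.09, adjusted p = 0.00145) and Zizyphi Fructus 500 ug/mL held 7.765, 7.510 and 7.846 CPM (-0.35 ± 0.09, 0.0126), both wholly below vehicle. The Zizyphi call was lost without vehicle 3 or without its own replicate 2. Pinelliae Tuber 500 ug/mL held 9.311, 6.973 and 7.943 CPM (-0.28 ± 0.09, 0.0477), and that call was lost in 4 other settings and in 5 of 6 fits that left out 1 library. Over the 19 treated groups ANGPTL8 rose in 2 and fell in 8.

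**Figure D3:**
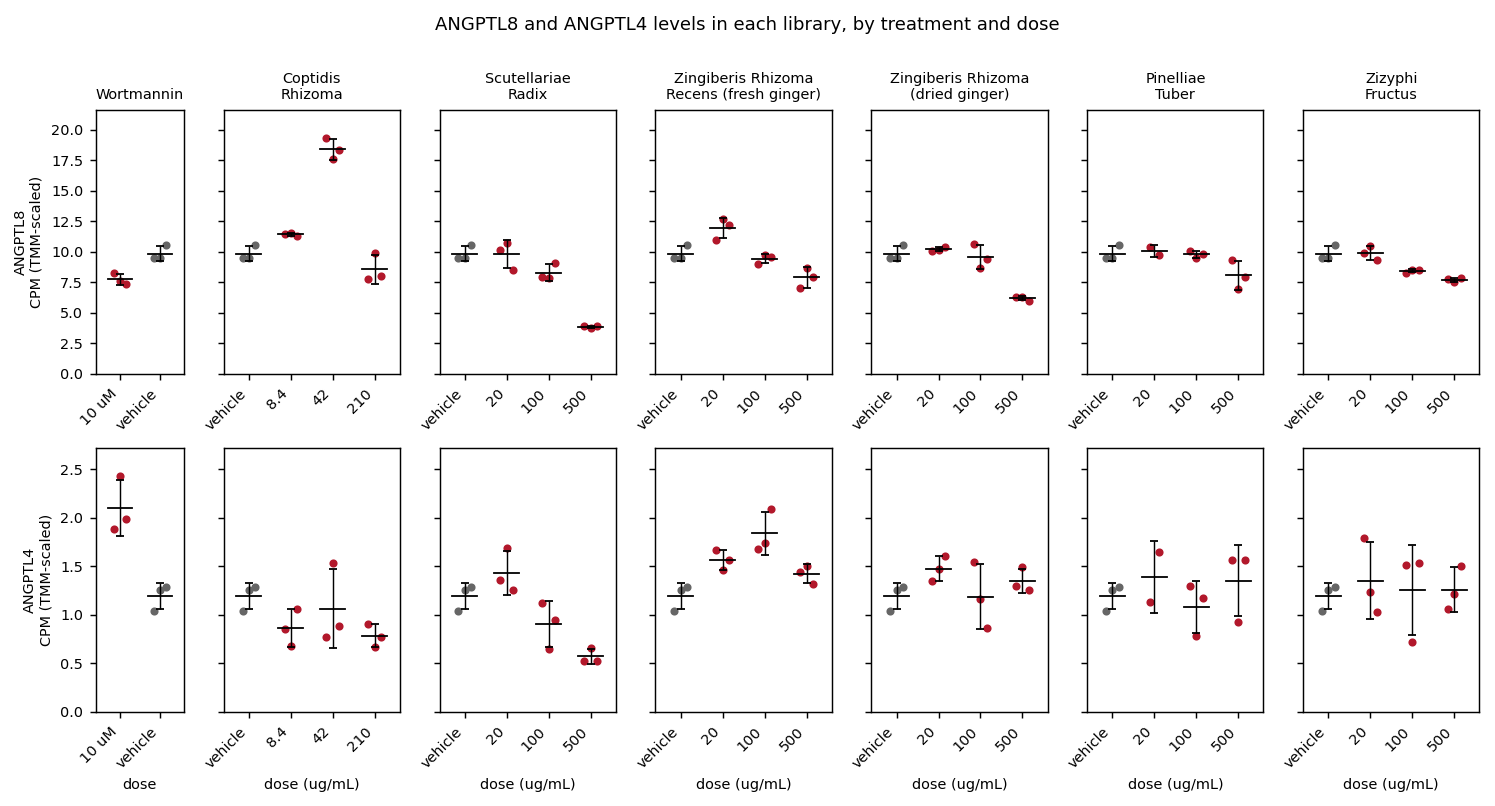
ANGPTL8 and ANGPTL4 levels in CPM by treatment group; each point is a library (red treated, grey vehicle), the black line is the mean and bars are 1 SD. ANGPTL8 peaks at the middle dose of Coptidis Rhizoma (17.58 to 19.33 CPM) and is lowest with Scutellariae Radix 500 ug/mL (3.761 to 3.925 CPM), and ANGPTL4 is highest with wortmannin (1.885 to 2.427 CPM).

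ANGPTL4 (ENSG00000167772, plus strand, chr19:8363289-8374373), which unfolds lipoprotein lipase and is a classic PPAR and hypoxia target, was expressed at 13 to 58 counts per library. It rose with wortmannin, at 1.885, 2.427 and 1.982 CPM against 1.041, 1.253 and 1.282 CPM in vehicle, by 0.81 ± 0.23 (adjusted p = 0.00486), with no overlap. It fell with Scutellariae Radix 500 ug/mL, at 0.526, 0.6613 and 0.5236 CPM, with a change of -1.06 ± 0.29 against vehicle (0.00211) and -1.32 ± 0.28 against 20 ug/mL of the same extract (0.000105), again with no overlap. Coptidis Rhizoma 210 ug/mL held 0.904, 0.6703 and 0.7684 CPM, all below vehicle (-0.60 ± 0.27, adjusted p = 0.0465), a call lost with other size factors, without the filter, with DESeq2 and in 4 of 6 fits that left out 1 library. Fresh ginger 100 ug/mL held 1.676, 1.741 and 2.093 CPM, all above vehicle, and missed the threshold (0.62 ± 0.24, adjusted p = 0.0529); it passed in a fit of only these groups and without the 3 libraries that stood apart. The antisense gene RAB11B-AS1 overlaps ANGPTL4 and changed by -1.07 with Coptidis Rhizoma 210 ug/mL and by -0.64 with Scutellariae Radix 500 ug/mL, so the limit on strand applies here too.

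Among lists tied to these genes, 13 of 16 tested PPAR targets rose and 2 fell with wortmannin (median 0.39), among them the transcription factor CREB3L3 (1.22), the carnitine transferase CPT1A (0.68) and the lipid droplet protein CIDEC (0.62); of all genes 16.2% rose and 16.0% fell. PPARA rose by 0.45 and PPARD by 0.33 in that group. With Coptidis Rhizoma 210 ug/mL 5 PPAR targets rose and 8 fell, where 34.8% of all genes rose and 34.5% fell. All 16 hypoxia genes rose with fresh ginger 500 ug/mL (median 0.96, CA9 3.26, PFKFB3 2.25) and with dried ginger 500 ug/mL (0.895), where ANGPTL4 changed by 0.25 ± 0.25 and 0.18 ± 0.25 and did not pass; 23.5% and 21.5% of all genes rose in these groups. Of 12 tested lipogenic genes, 11 fell with Coptidis Rhizoma 210 ug/mL (median -1.17, PNPLA3 -3.06, FADS2 -2.74), with Scutellariae Radix 500 ug/mL and with both gingers at 500 ug/mL. Of all genes, 34.5% fell with that Coptidis dose, 25.5% with Scutellariae Radix and 22.5% and 20.9% with fresh and dried ginger. MLXIPL, which encodes the carbohydrate sensor ChREBP and is a known inducer of ANGPTL8, changed by -1.12, -0.35, -0.75 and -0.66 in those 4 top-dose groups, and SREBF1 by -0.51, -0.72, -0.24 and -0.25.

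LPL and its anchor GPIHBP1 did not pass the filter, so the lipase targets measured were LIPC and LIPG. LIPC, the hepatic lipase, changed by -0.93 with Coptidis Rhizoma 210 ug/mL, -0.99 with Scutellariae Radix 500 ug/mL and 0.47 with wortmannin. LIPG, the endothelial lipase, changed by -1.72 with Coptidis Rhizoma 210 ug/mL and by 0.39 with Scutellariae Radix 500 ug/mL. Of the convertases that cleave ANGPTL proteins, PCSK5 rose by 4.01 and FURIN by 0.87 while PCSK6 fell by 1.13 with Coptidis Rhizoma 210 ug/mL. Over the 20 group means ANGPTL8 most resembled SEMA3B (r = 0.846) and RAB6A (0.841), and ANGPTL4 most resembled GPX3 (0.877), MTSS1 (0.858) and MINDY2 (0.841).

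FGL1 (ENSG00000104760, minus strand, chr8:17864380-17910365), a fibrinogen-like protein that binds the T cell checkpoint receptor LAG3, was the second most abundant member and the steadiest. It stayed between 96.3 and 133.4 CPM in every library outside Coptidis Rhizoma 210 ug/mL. There it held 67.01, 63.28 and 70.94 CPM, against 115.9, 111.3 and 113.9 CPM in vehicle, a change of -0.76 ± 0.04 (adjusted p = 1.15e-24). At 42 ug/mL it held 123.4, 128.9 and 125.2 CPM, wholly above vehicle (0.15 ± 0.03, 0.000408), and at 8.4 ug/mL 111.1, 117.7 and 113.7 CPM, overlapping with vehicle. The top over the middle Coptidis dose gave -0.91 ± 0.04 (2.78e-27), and the middle over the bottom dose 0.14 ± 0.03 (0.00113).

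Wortmannin raised FGL1 to 131.9, 133.4 and 132.2 CPM, above every vehicle library (0.22 ± 0.03, adjusted p = 1.04e-06). Scutellariae Radix gave 100.0, 100.4 and 101.8 CPM at 100 ug/mL (-0.17 ± 0.03, 0.000215) and 101.3, 96.3 and 101.8 CPM at 500 ug/mL (-0.19 ± 0.04, 1.07e-05), all below vehicle and overlapping between the 2 doses. No ginger, Pinelliae Tuber or Zizyphi Fructus group passed. The overlapping opposite-strand gene AC087273.2 ranged over group means from 1.243 to 3.395 CPM, far under FGL1. LAG3 did not pass the filter.

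FGL1 is related in sequence to the fibrinogens, which belong to the acute phase proteins of liver. With Coptidis Rhizoma 210 ug/mL 8 of 10 tested acute phase proteins fell and 1 rose (median -1.06), with FGA at -3.33, FGG at -3.19, HP at -2.96 and FGB at -2.21. With Scutellariae Radix 500 ug/mL 9 fell and 1 rose, and with fresh ginger 500 ug/mL 8 fell and 1 rose (median -0.77), a group in which FGL1 was at 107.7, 117.8 and 113.9 CPM and did not pass. Of all genes, 34.5%, 25.5% and 22.5% fell in these 3 groups. CEBPA, a hepatocyte transcription factor, changed by -1.98 with Coptidis Rhizoma 210 ug/mL, -1.66 with Scutellariae Radix 500 ug/mL and -1.15 and -0.96 with fresh and dried ginger 500 ug/mL. The genes most like FGL1 over the group means were NEK10 (r = 0.961), ANGPTL1 (0.949) and CHD1L (0.947).

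**Figure D4:**
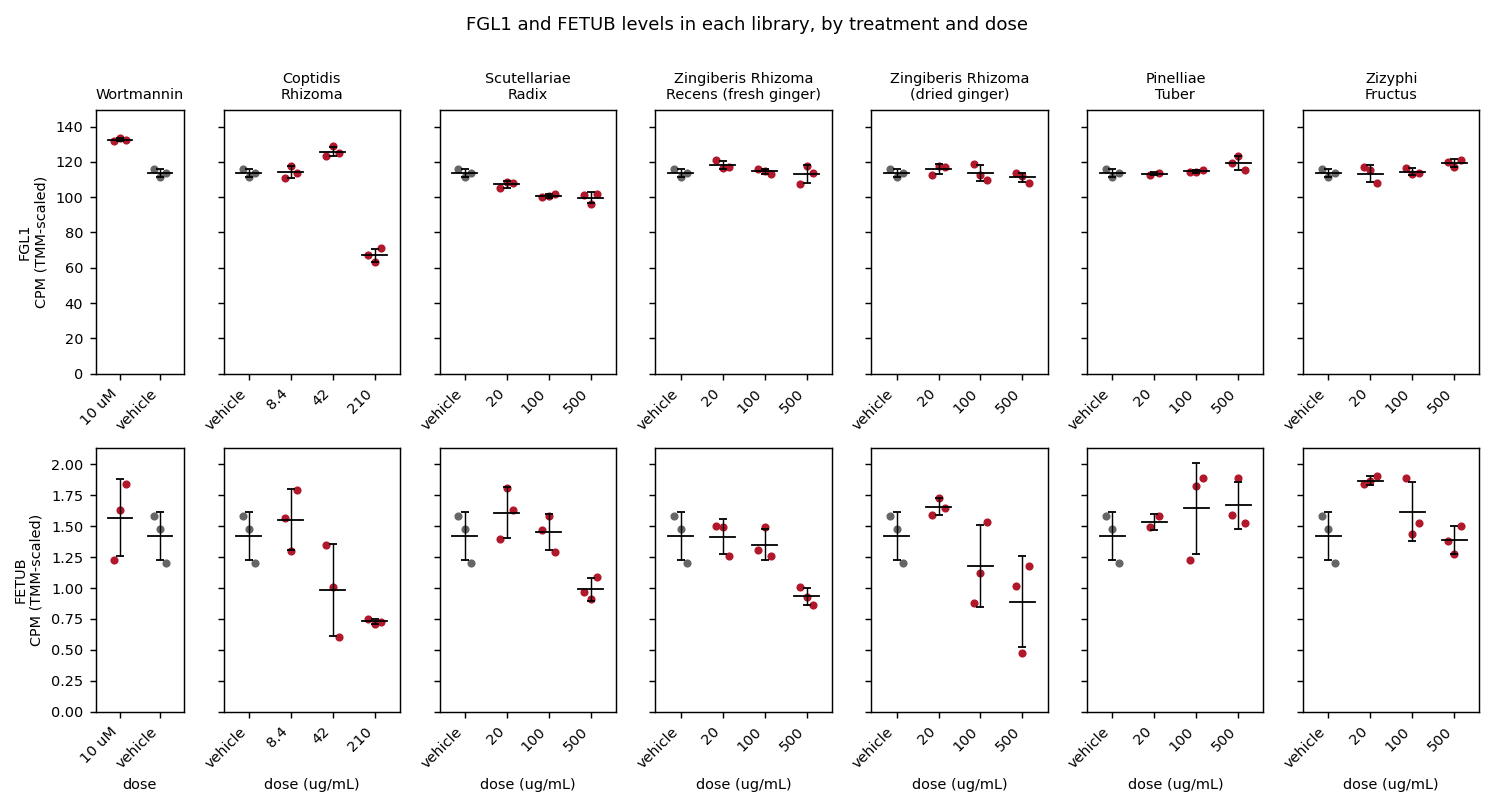
FGL1 and FETUB levels in CPM by treatment group; each point is a library (red treated, grey vehicle), the black line is the mean and bars are 1 SD. FGL1 is lowest with Coptidis Rhizoma 210 ug/mL (63.28 to 70.94 CPM), and FETUB is lowest on average in the same group (0.7097 to 0.7533 CPM).

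LECT2 (ENSG00000145826, minus strand, chr5:135922279-135955034), a chemotactic hepatokine that binds MET and TIE1, was near the limit of detection, with 282 counts over the 59 libraries and 1 to 12 in any. Fresh ginger 100 ug/mL held 7, 7 and 10 counts and fresh ginger 20 ug/mL held 7, 5 and 11, against 3, 2 and 1 in vehicle. Zizyphi Fructus 500 ug/mL held 8, 9 and 8 counts and Scutellariae Radix 500 ug/mL 5, 5 and 6. All these libraries lay above vehicle.

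The call for fresh ginger 100 ug/mL (log2 2.03 ± 0.53, adjusted p = 0.00299) was kept in 5 fits that left out 1 library (adjusted p up to 0.0282). In the remaining fit of the 6, LECT2 did not pass the filter, so whether the call held there is not known. The 2 libraries with the highest LECT2, at 0.4186 CPM each, were replicate 3 of fresh ginger 100 ug/mL and of fresh ginger 20 ug/mL. Passing the filter thus leaned on groups in which LECT2 was called. In counts it was a ratio of 4.26, with a 95% counting interval of 1.70 to 12.8. The other calls, fresh ginger 20 ug/mL (1.80 ± 0.53, adjusted p = 0.043), Scutellariae Radix 500 ug/mL (1.43 ± 0.57, 0.0458) and Zizyphi Fructus 500 ug/mL (1.80 ± 0.53, 0.0456), were lost in 4 of 5, 5 of 6 and 6 of 6 such fits and without the filter. All rest on 6 vehicle counts, and vehicle ranked 19 of the 20 group means of LECT2. The opposite-strand FBXL21 overlaps LECT2 and stood at group means of 8.356 to 12.27 CPM, well above LECT2 itself, so counts of LECT2 may include its reads.

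Of the receptors, MET, the growth factor receptor that LECT2 antagonizes, rose by 1.18 with Coptidis Rhizoma 210 ug/mL, 0.71 with Scutellariae Radix 500 ug/mL and 0.73 and 0.64 with the gingers at 500 ug/mL. TIE1, an endothelial receptor kinase, rose by 3.85, 1.54, 1.44 and 1.40 in those groups. The genes most like LECT2, JMJD7-PLA2G4B (r = 0.698), NPIPB3 (0.696) and DHX38 (0.643), resembled it less closely than those of the other members did theirs.

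FETUB (ENSG00000090512, plus strand, chr3:186635969-186653141), fetuin B, a cystatin-family protease inhibitor known from mice for keeping the egg coat open to sperm, fell at the top doses of 4 extracts. Coptidis Rhizoma 210 ug/mL held 0.7533, 0.7097 and 0.728 CPM, against 1.58, 1.481 and 1.202 CPM in vehicle, with no overlap (-0.96 ± 0.23, adjusted p = 0.000264). That call held in every setting tried and in every fit that left out 1 library. Fresh ginger 500 ug/mL held 1.007, 0.9291 and 0.8653 CPM (-0.61 ± 0.22, 0.0217), dried ginger 500 ug/mL 1.016, 0.473 and 1.177 CPM (-0.69 ± 0.22, 0.00959) and Scutellariae Radix 500 ug/mL 0.971, 0.9093 and 1.087 CPM (-0.52 ± 0.22, 0.0434), all wholly below vehicle.

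Several of these FETUB calls rested on few libraries. The dried ginger call was lost without its replicate 2 (-0.37, adjusted p = 0.204) and in a fit of only the groups compared (0.0859). With Coptidis Rhizoma 42 ug/mL, at 1.345, 1.008 and 0.6047 CPM, FETUB changed by -0.52 ± 0.22 (adjusted p = 0.0451), overlapped with vehicle and gave -0.26 without replicate 3. That call was lost without the filter (0.123), with the replicate block (0.0501), in a fit of only the groups compared (0.0961), with DESeq2 (0.0919) and in 4 of 6 fits that left out 1 library. The fresh ginger and Scutellariae calls were lost without the filter and in 3 and 4 of 6 fits that left out 1 library, and the Scutellariae call also with DESeq2 (0.0864) and in a fit of only the groups compared (0.0516). The top over the bottom dose gave -1.09 ± 0.23 with Coptidis Rhizoma (4.21e-05), -0.91 ± 0.21 with dried ginger (0.000443), -0.70 ± 0.21 with Scutellariae Radix (0.00566) and -0.61 ± 0.22 with fresh ginger (0.0206). The last was lost without the filter and in 3 of 6 fits that left out 1 library. The antisense gene AC068631.1, which overlaps FETUB, stood at group means of 0.0131 to 0.218 CPM. The genes most like FETUB were PSMB8 (r = 0.945), PRPSAP2 (0.943) and FAHD2A (0.942). Fetuin A (AHSG), its paralog, was named after its values had been seen: it changed by -0.42 with Coptidis Rhizoma 210 ug/mL, by -0.22 with Scutellariae Radix 500 ug/mL and by 0.19 and 0.21 with fresh and dried ginger 500 ug/mL.

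Of the 6 tested members, between 0 and 6 passed against vehicle in any group, and each count is read beside the share of all 16641 tested genes that passed. With wortmannin 4 of 6 passed, against 32.2% of all genes. With fresh ginger 3 passed at 20 ug/mL (5.10% of genes), 2 at 100 ug/mL (22.2%) and 3 at 500 ug/mL (46.0%). With dried ginger 0 (0.0841%), 1 (17.5%) and 3 (42.4%) passed at the same doses. For fresh ginger 20 ug/mL the 3 members were GDF15, ANGPTL8 and LECT2, and each of these calls was lost in some fits that left out 1 library. For Pinelliae Tuber the counts were 0 (0.00601%), 0 (0.204%) and 1 (4.57%) from the bottom to the top dose, for Zizyphi Fructus 0 (1.99%), 0 (0.228%) and 3 (3.61%), and for Scutellariae Radix 1 (4.74%), 3 (14.6%) and 6 (50.2%). For Coptidis Rhizoma they were 1 (16.0%), 4 (46.9%) and 5 (69.4%), the last being 3 with RLE size factors, without the filter or with DESeq2. The 3 for fresh ginger 20 ug/mL became 1 without the filter, the 3 for Zizyphi Fructus 500 ug/mL became 1 or 2 whenever 1 library was left out, and the 1 for Pinelliae Tuber 500 ug/mL became 0 in 4 other settings. The 6 for Scutellariae Radix 500 ug/mL became 4 without the filter, with DESeq2 or in a fit of only these groups, and 4 or 5 whenever 1 library was left out. At the top doses of the 4 active extracts, from 42.4% to 69.4% of all genes passed, so a large share of members passing there is no result about the members.

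Between the top and bottom dose, 4 of 6 passed for Coptidis Rhizoma (65.8% of all genes), 5 for Scutellariae Radix (49.9%), 3 for fresh ginger (48.1%), 3 for dried ginger (41.0%), 1 for Zizyphi Fructus (7.22%) and 0 for Pinelliae Tuber (1.90%). Between the top and middle dose the counts were 3 (56.4%), 3 (48.5%), 2 (26.5%), 2 (23.7%), 0 (1.04%) and 0 (3.61%) in the same order of extracts. Between the middle and bottom dose they were 4 (31.7%), 1 (2.12%), 2 (24.7%), 1 (16.2%), 0 (0.0361%) and 0 (0.00601%). GDF15 was the member common to all 3 steps of the 4 active extracts. The gingers differed in 1 member at 500 ug/mL (ANGPTL8, against 1.83% of all genes), 1 at 100 ug/mL (GDF15, 0.379%), 0 at 20 ug/mL (0.0481%) and 0 in the change from bottom to top dose (0.655%).

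**Figure D5:**
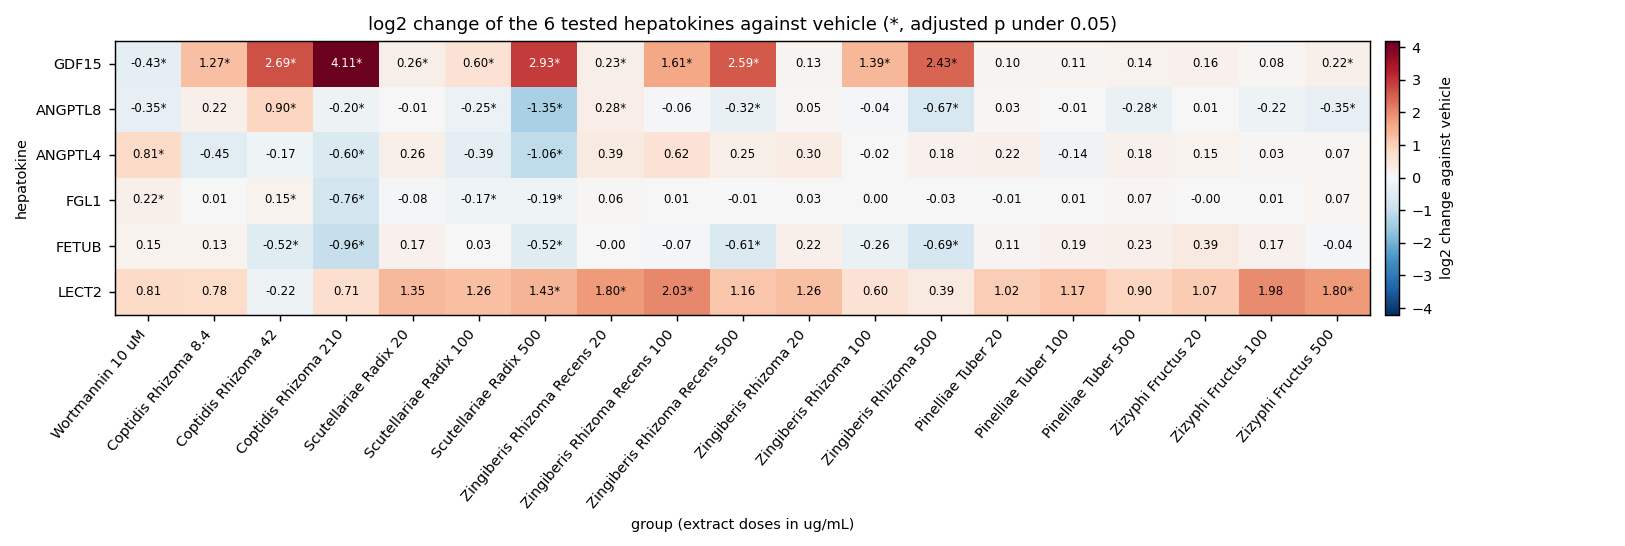
Log2 change against vehicle of the 6 tested members (rows) in the 19 treated groups (columns); red is higher and blue lower than vehicle, and a star marks an adjusted p under 0.05. GDF15 runs from -0.43 with wortmannin to 4.11 with Coptidis Rhizoma 210 ug/mL, while ANGPTL8, FETUB and FGL1 are mostly at or below 0 at the top doses.

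Across members the responses split by extract and dose. In Coptidis Rhizoma, GDF15 rose at each dose, whereas ANGPTL8 and FGL1 were highest at 42 ug/mL and lower again at 210 ug/mL. In Scutellariae Radix 500 ug/mL, GDF15 and LECT2 were called higher and ANGPTL8, ANGPTL4, FGL1 and FETUB lower. The LECT2 and FETUB calls there were lost without the filter and with DESeq2. They were also lost in 5 and 4 of 6 fits that left out 1 library, respectively. With both gingers at 500 ug/mL, GDF15 rose, ANGPTL8 and FETUB were called lower and FGL1 did not pass. Each FETUB call with ginger was lost in some fits that left out 1 library. With wortmannin, GDF15 and ANGPTL8 fell and ANGPTL4 and FGL1 rose. All these comparisons share the same 3 vehicle libraries. The summed hepatocyte markers were above vehicle with wortmannin and below it with Scutellariae Radix 500 ug/mL and Coptidis Rhizoma 210 ug/mL, as FGL1 was, and their part in the change of FGL1 was not tested. With fresh and dried ginger 500 ug/mL the marker sum lay at 41870 to 42810 and 39910 to 44900 CPM, also below vehicle, where FGL1 did not pass. With Coptidis Rhizoma 42 ug/mL it lay at 43390 to 44450 CPM, below vehicle, where FGL1 was called higher.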

How the data were processed

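Per the labels' protocols, RNA of HepG2 cells was made into directional MGI mRNA libraries and read as pairs of 100 bases. The authors deposited expected counts per gene, which RSEM estimates and which need not be whole (24.44% of nonzero values were not). Per the submitters' processing notes the tools were RSEM 1.3.3, STAR 2.7.3a, Trim Galore 0.6.5 and FastQC 0.11.9 on GRCh38 (hg38); which annotation and strand setting the counting used is not stated there. Of 267 columns, 59 matched the labels of this series and 208 were not used. Symbols matched 56558 of 60675 gene identifiers, and coordinates came from GENCODE release 29 for 57055.

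Expected counts were rounded and tested in R 4.3.3 with limma 3.58.1 and edgeR 4.0.16: TMM scaling, filterByExpr with the groups (16641 genes left), 1 quasi-likelihood fit of 20 group means (39 residual degrees of freedom), Benjamini-Hochberg adjustment over all tested genes, two-sided, called at an adjusted p under 0.05. The script was tested on simulated counts. Changes are log2 with SE, which was taken as the absolute change divided by the square root of the F statistic of the test. CPM (counts scaled to library size) uses TMM-scaled library sizes. Groups came from the labels. In all, 40 pairwise comparisons and 1 difference of differences were made. Alternatives were RLE size factors, no filter, DESeq2 1.42.0, a replicate block, fits of only the groups compared, leaving out the 3 libraries that stood apart and leaving out each library in turn. The 3 libraries were named by an earlier analysis of these data. Ratios of low counts have exact 95% intervals, and the floor was 3 counts over the group. Likeness is Pearson's r over the 20 group means of log2(CPM + 1), for genes with a mean of at least 5 CPM. Promoter windows of 300 bases and gene starts are from RefSeq and covered 6 of the 8 members; none was used for FGF19 or FGL1.

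The members and gene lists were chosen with earlier results of these data known. Named were the 8 members; receptors, partners and regulators that bear on them; of other lists up to 4 called genes with the largest change in a comparison; and the 3 most similar genes per member. Results for some genes that these rules would name are not reported here.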

Additional observations from a re-analysis of the deposited data

How the results depend on the processing

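No called value of a member turned its direction in any setting tried. Of the 76 member calls that RLE size factors could give, 73 held; the counts of held calls were 60 of 76 without a filter on low counts, 64 of 73 with DESeq2, 46 of 54 in fits of only the groups compared, 75 of 76 without the 3 libraries that stood apart and 373 of 454 over the fits that left out 1 library. Correlations of the deviations of same-numbered replicates ranged from -0.216 to 0.268, and in 0 of 28 comparisons checked was every one over 0.1. That rule was not calibrated, and comparisons with Pinelliae Tuber 20 ug/mL, which held 2 libraries, could not meet it. It therefore cannot exclude that the numbers pair libraries. With the replicate block 73 of 76 calls held, and those lost were ANGPTL8 with Pinelliae Tuber 500 ug/mL (adjusted p = 0.0544) and with Scutellariae Radix 100 ug/mL (0.0548) and FETUB with Coptidis Rhizoma 42 ug/mL (0.0501). The number of members called against vehicle moved as follows, and the cause was not tested. For Coptidis Rhizoma 210 ug/mL, 5 became 3 with RLE size factors, without a filter and with DESeq2, and 3 to 5 when 1 library was left out; for Coptidis Rhizoma 8.4 ug/mL, 1 became 2 when only the groups compared were fitted. For fresh ginger 100 ug/mL, 2 became 1 with DESeq2, which gave no adjusted p for LECT2, and 1 to 2 when 1 library was left out; for fresh ginger 20 ug/mL, 3 became 1 without a filter and 0 to 2 when 1 library was left out. In both groups LECT2 was tested in only 5 of the 6 fits that left out 1 library. For Pinelliae Tuber 500 ug/mL, 1 became 0 without a filter, with the block, in a fit of only the groups compared and with DESeq2, and 0 to 1 when 1 library was left out. Zizyphi Fructus 500 ug/mL gave 1 to 2 in place of 3 when 1 library was left out, 100 ug/mL gave 1 in place of 0 without the 3 libraries that stood apart, and 20 ug/mL gave 1 in place of 0 without a filter. Between doses, Pinelliae Tuber 500 over 20 ug/mL gave 0 to 1 in place of 0 when 1 library was left out, and Zizyphi Fructus 500 over 20 ug/mL gave 0 in place of 1 in a fit of only these groups. Fresh against dried ginger gave 0 in place of 1 at 500 ug/mL in a fit of only these groups, 0 to 1 when 1 library was left out, and 0 in place of 1 at 100 ug/mL whenever 1 library was left out. Depth limits FGF21, FGF19 and LECT2, which had at most 6, 5 and 12 counts in a library.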

Other observations

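Other secreted liver proteins were counted in the same comparisons. Of 20 listed, 17 were tested, and with Coptidis Rhizoma 210 ug/mL 5 rose and 11 fell (median -0.55), where 34.8% of all genes rose and 34.5% fell. The largest changes were in BMP6, which raises hepcidin (5.08), the hormone of red cell production EPO (-3.34), ENHO, which encodes adropin (-2.41), and the activin subunit INHBC (-1.93), all called by edgeR. With Scutellariae Radix 500 ug/mL 4 rose and 8 fell (24.7% and 25.5% of all genes), with fresh ginger 500 ug/mL 5 rose and 6 fell (23.5% and 22.5%), and with wortmannin 7 rose and 1 fell (16.2% and 16.0%).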
